A study of Mus musculus with 40 samples.

Results

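The cytochrome P450 genes of families 1 to 3 were examined for binding of the corepressors SMRT and NCoR and of the histone deacetylase HDAC3 in fed mouse liver. The genes were those annotated as protein-coding on an autosome with a symbol of Cyp1, Cyp2 or Cyp3, a single letter and a number, which gave 58 of 20807 autosomal protein-coding genes. Each peak was given to the gene with the nearest transcription start site (TSS), and this placed 169 of 35138 NCoR peaks, 79 of 10654 SMRT peaks and 93 of 14462 HDAC3 peaks at these genes. The series held 40 samples of mouse liver chromatin profiled by ChIP-seq, in which DNA bound by a protein is recovered with an antibody and sequenced. The peak lists used here came from male C57BL/6 mice of genotype Bcl6 fl/fl that carried no Cre, so that Bcl6 was intact, and that were fed standard chow ad libitum. There were 3 animals per cofactor, and each list was made from the 3 libraries pooled. The animals' age is not given in the sources used here, and the other 31 samples were not analysed here.

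P450 enzymes are heme proteins of the endoplasmic reticulum that insert oxygen into lipophilic molecules, with electrons supplied by P450 oxidoreductase. Families 1 to 3 act on drugs, dietary compounds, steroids and fatty acids, are abundant in hepatocytes, and lie mostly in arrays of closely related copies. Their transcription is known to respond to the aryl hydrocarbon receptor (family 1), to the nuclear receptors CAR and PXR (families 2 and 3), to HNF4α, and, for genes that differ between the sexes, to growth hormone acting through STAT5. SMRT and NCoR are scaffolds that DNA-bound repressors and nuclear receptors recruit, and HDAC3 is the deacetylase they carry.

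An NCoR peak with a SMRT and an HDAC3 peak centre within 200 bp is called a shared site, and one with neither an NCoR-only site. The sequences of 10 NCoR peaks are shown because they carry the motifs discussed below, each on the strand of its gene, in lower case with the motif in capitals and with exon bases left out (GRCm38, the mm10 assembly). Capitals mark only the motif named for each peak. C/EBP strings in the Cyp3a25 and Cyp2c67 peaks and a FOX match in the Cyp2g1 peak stay in lower case. The first group lies at promoters. The Cyp3a11 peak (chr5:145879965-145880115, minus strand) is NCoR-only, with FOX (TGTTTAC) and ROR (TAGGTCA) matches in capitals. The peaks of Cyp3a25 (chr5:146009618-146009835, minus strand, shared), Cyp3a59 (chr5:146079050-146079266, plus strand, with HDAC3) and Cyp3a57 (chr5:145344971-145345199, plus strand, shared) hold the HNF4 string CAAAGGTCA. The peak of Cyp2c70 (chr19:40187287-40187477, minus strand, shared) holds the other HNF4 string, CAAAGTCCA. That of Cyp2c67 (chr19:39649061-39649289, minus strand, with HDAC3) holds it together with an HNF6 match (TATTGAT). The Cyp2d10 peak (chr15:82407196-82407394, minus strand, NCoR-only) holds a DR1 element, the direct repeat that HNF4 and PPAR/RXR can bind.
Cyp3a11: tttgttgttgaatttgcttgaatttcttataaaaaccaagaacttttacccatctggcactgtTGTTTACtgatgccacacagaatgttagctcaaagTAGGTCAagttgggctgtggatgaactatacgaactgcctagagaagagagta
Cyp3a25: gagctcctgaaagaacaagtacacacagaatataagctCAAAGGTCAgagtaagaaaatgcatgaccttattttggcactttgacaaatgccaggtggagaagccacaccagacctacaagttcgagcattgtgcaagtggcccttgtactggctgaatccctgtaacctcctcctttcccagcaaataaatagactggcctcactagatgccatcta
Cyp3a59: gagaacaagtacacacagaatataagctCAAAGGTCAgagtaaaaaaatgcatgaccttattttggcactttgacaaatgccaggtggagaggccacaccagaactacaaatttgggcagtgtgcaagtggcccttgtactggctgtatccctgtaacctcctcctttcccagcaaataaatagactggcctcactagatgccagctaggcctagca
Cyp3a57: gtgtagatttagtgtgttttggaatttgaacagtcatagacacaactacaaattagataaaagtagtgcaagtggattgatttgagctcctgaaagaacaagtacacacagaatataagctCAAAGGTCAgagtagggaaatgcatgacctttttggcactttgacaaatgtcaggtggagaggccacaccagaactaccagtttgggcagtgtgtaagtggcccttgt
Cyp2c67: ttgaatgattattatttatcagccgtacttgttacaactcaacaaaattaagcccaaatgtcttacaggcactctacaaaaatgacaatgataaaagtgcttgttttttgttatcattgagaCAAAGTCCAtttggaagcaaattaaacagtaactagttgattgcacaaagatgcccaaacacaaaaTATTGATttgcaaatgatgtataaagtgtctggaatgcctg
Cyp2c70: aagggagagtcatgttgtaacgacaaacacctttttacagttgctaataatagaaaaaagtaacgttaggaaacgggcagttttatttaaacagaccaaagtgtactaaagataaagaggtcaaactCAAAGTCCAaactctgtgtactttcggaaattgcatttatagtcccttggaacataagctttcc
Cyp2d10: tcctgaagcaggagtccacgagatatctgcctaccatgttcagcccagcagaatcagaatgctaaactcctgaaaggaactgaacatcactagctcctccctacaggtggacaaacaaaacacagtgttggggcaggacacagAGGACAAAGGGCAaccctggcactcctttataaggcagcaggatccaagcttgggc

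The second group comprises shared sites away from promoters. The Cyp2d40 site (chr15:82763713-82763921, minus strand) lies in an intron 356 bp downstream of the TSS, and its DR1 match contains the string CAAAGTCCA. The Cyp2e1 site (chr7:140748448-140748676, plus strand) lies between genes upstream, at -15177 bp, and holds a BCL6/STAT match (TTCNNNGAA). The Cyp2g1 site (chr7:26801109-26801337, plus strand) lies upstream, at -7669 bp, and holds the only DR4 element, the direct repeat known to be bound by CAR and PXR, in the central 200 bp of any of the 169 NCoR peaks.
Cyp2d40: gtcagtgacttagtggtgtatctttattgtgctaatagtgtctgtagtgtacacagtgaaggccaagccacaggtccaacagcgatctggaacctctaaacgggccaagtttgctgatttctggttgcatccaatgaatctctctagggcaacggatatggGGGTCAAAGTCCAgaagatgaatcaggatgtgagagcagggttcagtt
Cyp2e1: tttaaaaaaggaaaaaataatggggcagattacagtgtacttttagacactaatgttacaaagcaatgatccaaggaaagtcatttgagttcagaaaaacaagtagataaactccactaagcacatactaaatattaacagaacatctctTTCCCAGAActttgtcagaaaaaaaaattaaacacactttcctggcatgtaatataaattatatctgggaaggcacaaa
Cyp2g1: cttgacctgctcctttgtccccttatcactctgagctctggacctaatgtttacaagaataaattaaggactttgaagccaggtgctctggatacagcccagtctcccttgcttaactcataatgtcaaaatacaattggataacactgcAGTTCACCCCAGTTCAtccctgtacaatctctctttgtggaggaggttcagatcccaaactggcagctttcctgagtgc

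The lists gave positions only, with no height, score or value per library, so no value below has an error between animals. Intervals in parentheses after shares are exact (Clopper-Pearson) 95% binomial intervals. They cover counting error only, and neighbouring peaks and related genes are not independent. The depth of each library is not given in the sources used here. The liver is a mixture of cell types, and binding in few cells cannot be told apart from weak binding in many. As a check of the tissue label, NCoR peaks were nearest to 6 of 6 hepatocyte marker genes (56 peaks; Alb, Ttr, Apoa1, Apob, Serpina1c and Hnf4a) and to 1 of 5 markers of other tissues (Ins2, 1 peak; not Myod1, Neurod1, Cd3e or Myh6). Over all autosomal protein-coding genes the share with an NCoR peak was 50.5%, so lists this short are a coarse check.

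Corepressor binding was widespread across the drug-metabolising P450s. At least 1 NCoR peak was nearest to 53 of the 58 genes (91.4%, 81.0 to 97.1), compared with 50.5% of all autosomal protein-coding genes. SMRT was found at 38 genes (65.5%, 51.9 to 77.5; 24.5% of all genes) and HDAC3 at 41 (70.7%, 57.3 to 81.9; 30.3% of all genes). A shared site was found at 31 genes (53.4%, 39.9 to 66.7; 21.8% of all genes). An NCoR peak at the gene's own promoter was found at 25 genes (43.1%, 30.2 to 56.8; 15.7% of all genes), where a promoter was taken as the 1000 bp before a TSS and the 100 bp after it. Each of these 5 shares had an interval that lay above the share of all genes.

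The P450 genes held the nearest TSS over longer stretches than most genes, with a median territory of 79.7 kb against 45.3 kb. Over summed territory, they carried 37.8 NCoR peaks and 14.5 shared sites per Mb, compared with 14.0 and 3.51 per Mb over all autosomal genes. These rates divide all peaks by all territory (4.47 Mb and 2460 Mb), so genes with long territories weigh most in them. They do not correct for the difference in median territory. The median was 3 NCoR peaks per gene against 1. NCoR peaks and shared sites were also dense at conjugation enzymes (45.5 and 12.8 per Mb) and at other P450 genes (32 and 11.4 per Mb), sets described below. Of the members, 14 had 1 NCoR peak, 32 had 2 to 5 and 7 had more than 5. The 5 genes with the most NCoR peaks together held 38, or 22.5% of the total. Without Cyp3a11, the gene with the most, the shared share of the remaining peaks was 37.7% rather than 38.5%.

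**Figure D1:**
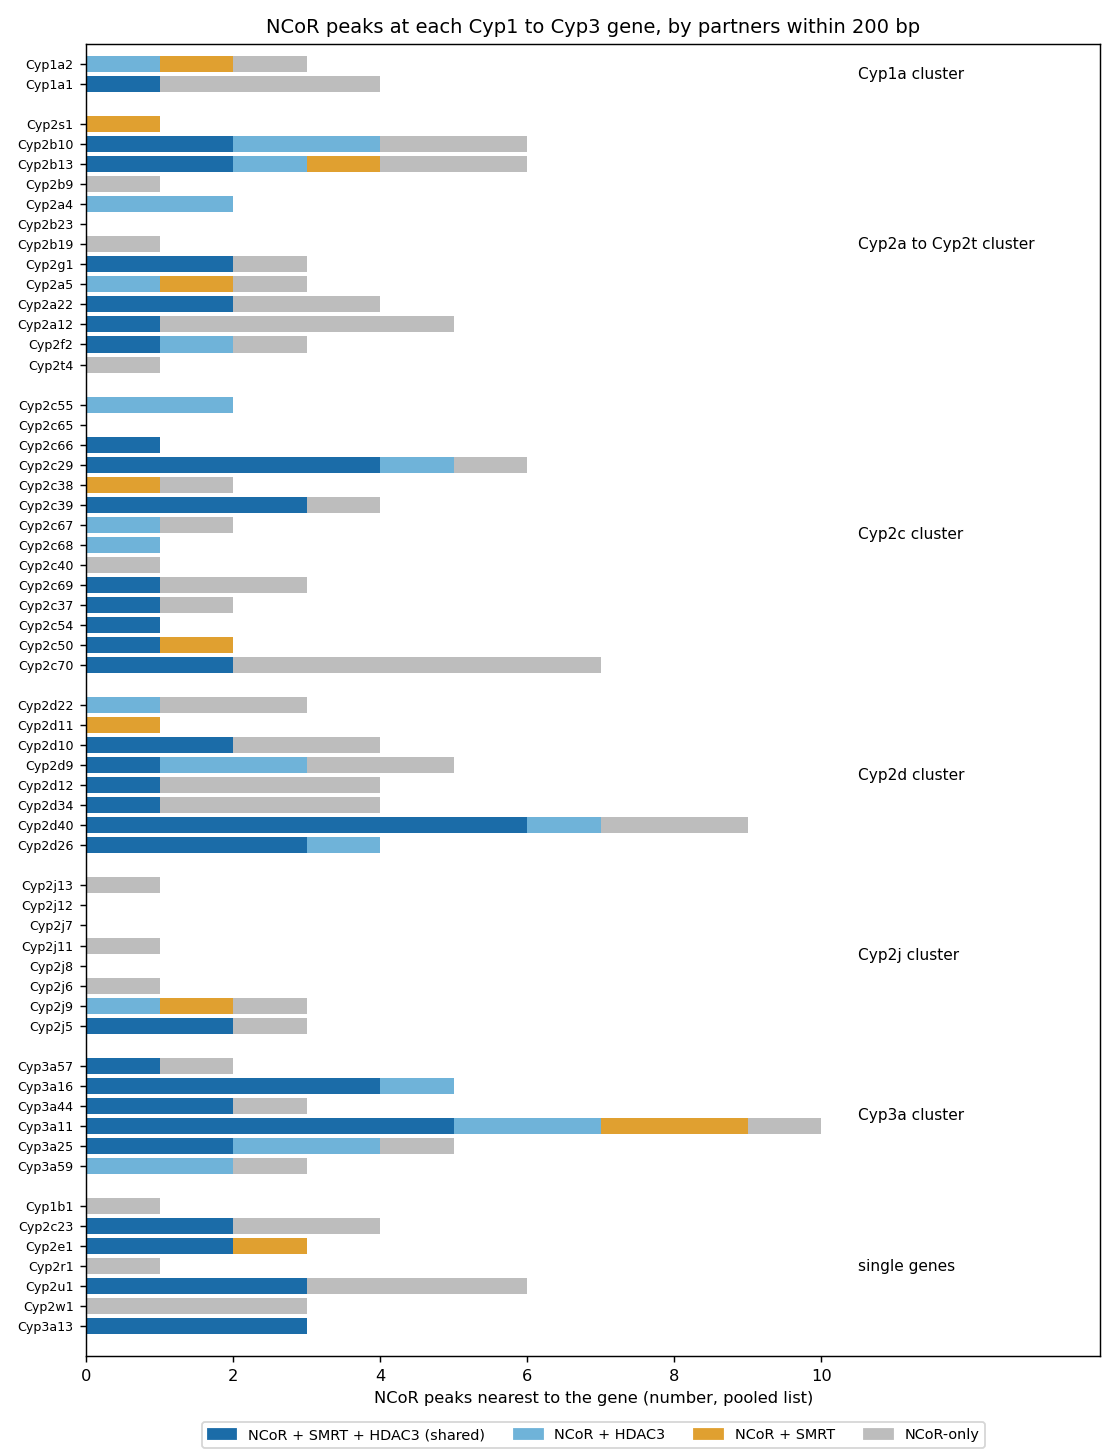
NCoR peaks nearest to each of the 58 genes (x axis, number in the pooled list), stacked by the cofactors within 200 bp, with genes in chromosomal order within each cluster. Cyp3a11 (10 peaks) and Cyp2d40 (9) have the most, and 5 genes have no bar.

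Because the reads were kept only where they mapped uniquely, the array structure of these genes bears on what could be seen. Uniqueness was estimated as the share of 75-base windows, over a gene and 10 kb around it, with no other place in the genome at up to 2 mismatches. The median was 77.0% for the P450 genes and 96.0% for 2000 autosomal protein-coding genes drawn at random, and 36 of 58 (62.1%) fell under 80%, compared with 12.6% of the drawn genes. The lowest values were 26.1% at Cyp2a5, the coumarin hydroxylase, 26.5% at Cyp2a4, and 27.8% at Cyp2c40. The highest was 99.6% at Cyp1b1. By cluster, the median was 68.7% for Cyp3a, 68.9% for Cyp2a to Cyp2t, 70.2% for Cyp2c, 77.2% for Cyp2d, 78.0% for Cyp2j and 96.7% for Cyp1a.

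Peaks were found at the least unique genes too. All 8 genes under 50% (Cyp2a4, Cyp2a5, Cyp2a22, Cyp2c40, Cyp2c67, Cyp2c68, Cyp2c69 and Cyp3a44) had at least 1 NCoR peak (50.5% of all genes). There were 19 in all, of which 5 were shared sites at 3 genes (21.8% of all genes). Some of these peaks were themselves under 50% unique, at Cyp2c69 (25%), Cyp2c40 (43.8%) and Cyp2a5 (43.8%). Genes under 80% carried 3.55 NCoR peaks per 100 kb of territory with 40.7% shared (31.6 to 50.4), and the 22 other genes carried 4.36 per 100 kb with 33.9% shared (21.8 to 47.8). Spearman's rho between uniqueness and NCoR peaks per 100 kb was 0.19 across the 58 genes, which are related and share libraries, and is given as a description. Of the 169 NCoR peaks, 161 (95.3%) had a unique window at their centre, compared with 99.7% of all autosomal NCoR peaks, and 12 peaks had fewer than 50% unique windows. How many sites in the repeated stretches went unseen was not tested.

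**Figure D2:**
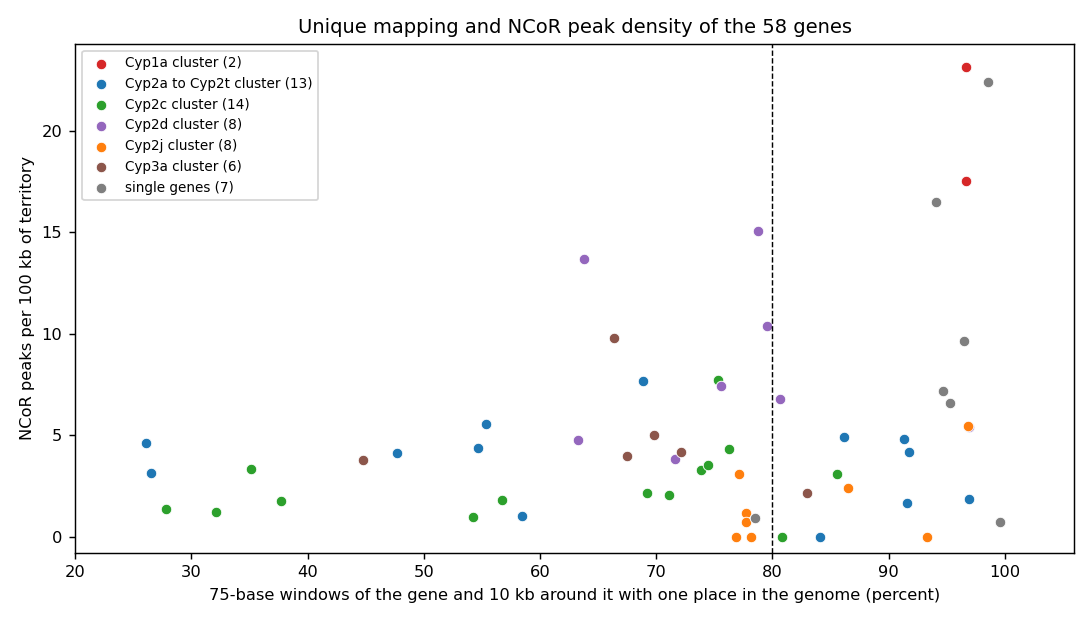
Each point is 1 of the 58 genes, coloured by cluster, with the percent of unique 75-base windows on the x axis, NCoR peaks per 100 kb of territory on the y axis, and a dashed line at 80%. The 8 genes under 50% all lie above 0, and the densest genes (Cyp1a1, Cyp1a2, Cyp2w1 and Cyp2u1) lie above 90%.

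The genes formed 6 clusters and 7 single genes, taking as a cluster a chain of members with gaps of at most 1 Mb. The Cyp3a cluster on chromosome 5, whose products oxidise steroids and many drugs, had the largest shared share of the clusters. It held 28 NCoR, 16 SMRT and 21 HDAC3 peaks at 6 genes, and 14 of the NCoR peaks (50%, 30.6 to 69.4) were shared sites. The Cyp2d cluster on chromosome 15 was denser, with 34 NCoR, 16 SMRT and 19 HDAC3 peaks at 8 genes, which made 7.0 NCoR peaks per 100 kb of territory against 4.91 for Cyp3a, and 14 of its NCoR peaks (41.2%, 24.6 to 59.3) were shared.

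The Cyp2c cluster on chromosome 19 also held 34 NCoR peaks with 14 shared sites, spread over 13 of its 14 genes and at 2.7 NCoR peaks per 100 kb. It had the most bound promoters, with an NCoR peak at the promoter of 9 of 14 genes. The Cyp2a to Cyp2t cluster on chromosome 7 had 36 NCoR peaks at 12 of its 13 genes, of which 10 (27.8%, 14.2 to 45.2) were shared, and an NCoR peak at the promoter of only 2 genes, Cyp2a12 and Cyp2a22. The intervals of these shared shares overlapped one another, and no difference between clusters was tested.

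The Cyp2j cluster on chromosome 4, whose members include fatty acid epoxygenases, was the most sparsely bound of the 6. It held 9 NCoR, 3 SMRT and 3 HDAC3 peaks at 5 of its 8 genes, or 1.28 NCoR peaks per 100 kb, and 3 genes (Cyp2j7, Cyp2j8 and Cyp2j12) had no peak of any cofactor. Its 2 shared sites both belonged to Cyp2j5, at -92 and -1093 bp. The median uniqueness of this cluster, 78.0%, was above that of Cyp2c and Cyp3a. The other genes with no peak of any cofactor were Cyp2c65 (80.8% unique) and Cyp2b23 (84.1% unique).

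The single genes differed widely. Cyp3a13, which lies apart from the Cyp3a cluster, had 3 NCoR peaks, and all 3 were shared sites, at -163 and -771 bp in the promoter and at 5828 bp in an intron. Cyp2u1, a fatty acid hydroxylase, had 6 NCoR peaks, 3 of them shared, and Cyp2c23 had 4, 2 of them shared. Cyp2w1, picked out after its values were seen, had 3 NCoR peaks within 13.4 kb of territory and neither SMRT nor HDAC3. It was 1 of 9 genes with NCoR peaks and no other cofactor, which included Cyp1b1 and Cyp2b9.

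Among individual genes, Cyp3a11, the main PXR-responsive Cyp3a of mouse liver, was nearest to 10 NCoR, 7 SMRT and 7 HDAC3 peaks. Its 5 shared sites all lay upstream and between genes, at -1449, -20672, -23579, -31925 and -33169 bp. A peak centred at -37 bp was the only NCoR-only site of the gene. The central windows of the 5 shared sites held no match to any of the 9 motifs searched.

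Cyp2d40 was nearest to 9 NCoR, 6 SMRT and 7 HDAC3 peaks. Of its 6 shared sites, 1 lay upstream at -1970 bp, 1 in the intron at 356 bp, and 4 beyond the 3′ end of the gene, at 15826, 16490, 56645 and 68806 bp. These distal sites came in closely spaced pairs with a neighbouring NCoR peak.

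Cyp2c70, a bile acid hydroxylase that makes muricholic acids in mice, was nearest to 7 NCoR peaks. Of these, 5 were NCoR-only and 2 were shared, at -77 and -39690 bp, the latter within another gene. Cyp2c29, Cyp2b10, Cyp2b13 and Cyp2u1 followed with 6 NCoR peaks each. Of the 6 at Cyp2c29, 4 were shared, at -112, -1283, -56387 and 59186 bp.

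Of the 8 genes listed for their response to drugs and other foreign compounds, all 8 had an NCoR peak (50.5% of all genes), 5 had a shared site (21.8%) and 4 had NCoR at the promoter (15.7%). Cyp1a1, the classical target of the aryl hydrocarbon receptor, had 4 NCoR peaks, of which 1 was shared. This site lay between Cyp1a2 and Cyp1a1, and its distance of -1727 bp is from an alternative start of Cyp1a1 upstream of the start nearest to the other 3 peaks. Cyp1a2, which shares its upstream region with Cyp1a1, had 3 NCoR peaks and no shared site, with HDAC3 but not SMRT at its promoter peak at -71 bp. These genes had the highest density of the clusters, at 20.3 NCoR peaks per 100 kb over a combined territory of 34.4 kb.

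Cyp2b10, the classical CAR target, had 6 NCoR, 2 SMRT and 4 HDAC3 peaks. Its shared sites lay at -4235 bp and in an intron at 18629 bp, and an NCoR peak with HDAC3 but not SMRT lay at -2272 bp. There was no peak at its promoter. Cyp2e1, which oxidises ethanol and small solvents, had 3 NCoR peaks and no NCoR-only site, with shared sites at -15177 and -7007 bp and NCoR with SMRT at -109 bp. Cyp2a5 (26.1% unique) had 3 NCoR peaks and no shared site. Cyp1b1 had 1 NCoR peak, at -31213 bp, and no other cofactor.

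The genes listed as higher in female than male liver are of interest because the livers came from males. NCoR was found at 6 of 6 of them, with 20 NCoR peaks in all (50.5% of all genes), and shared sites at 4, with 9 sites (21.8% of all genes). NCoR at the promoter was found at 0 of 6, where 15.7% of all genes had it, and nothing is read from so short a list. These 6 genes had from 26.5% (Cyp2a4) to 72.1% (Cyp3a16) unique windows, compared with a median of 77.0% for the 58 P450 genes. Each of their promoter sequences was 91.1% to 99.3% identical to that of another member. Whether promoter peaks went unseen for lack of unique reads was not tested. Cyp3a16 had 5 NCoR, 4 SMRT and 5 HDAC3 peaks. Of its NCoR peaks, 4 were shared, at 4874 and 15045 bp in introns and at 38531 and 41611 bp beyond the gene. The peak at 4874 bp had 43.8% unique windows. Cyp3a44 had 2 shared sites, both in introns, at 5427 and 12423 bp, where 50% and 56.2% of windows were unique. Cyp2b13 had 2, at -74265 bp, the most distant NCoR peak of all members, and at 21246 bp in an intron. Cyp2c69 had 1, at -36954 bp, where 25% of windows were unique.

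Cyp2b9 had 1 NCoR peak (18.8% unique windows) and no other cofactor, and its promoter sequence was 99.3% identical to that of Cyp2b13. Cyp2a4 had 2 NCoR peaks with HDAC3 (50% and 56.2% unique windows) and an HDAC3 peak without a partner at 8840 bp (35.7%). Cyp2d9, listed as higher in males, had 5 NCoR peaks, with 1 shared at -2173 bp and a promoter peak at 10 bp with HDAC3. The list of female-biased genes held 6 members, and whether their promoters differ from those of other members was not tested.

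The cofactors were next compared with one another at these genes. Of the 169 NCoR peaks, 65 were shared sites (38.5%, 31.1 to 46.2), compared with 25% (24.6 to 25.5) of all autosomal NCoR peaks. NCoR-only sites numbered 67 (39.6%, 32.2 to 47.4), compared with 55.9% (55.4 to 56.5). NCoR with HDAC3 but not SMRT accounted for 26 (15.4%, against 14.8%) and NCoR with SMRT but not HDAC3 for 11 (6.51%, against 4.16%). The difference from all autosomal peaks therefore lay in the shared and NCoR-only classes, whose intervals did not reach the values of all peaks.

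Seen from the other lists, 65 of 79 SMRT peaks (82.3%, 72.1 to 90.0) were shared, close to the 82.0% of all autosomal SMRT peaks. Of the HDAC3 peaks, 65 of 93 were shared (69.9%, 59.5 to 79.0; 60.6% over all autosomes). SMRT without either partner was found at 3 positions, at -2517 bp of Cyp2d22 and at -5319 and 1647 bp of Cyp2c50. HDAC3 without either partner was found at 2, at 8840 bp of Cyp2a4 and at -699 bp in the promoter of Cyp2r1, the vitamin D 25-hydroxylase. Cyp2d22 and Cyp2r1 are named here after their values were seen.

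Other P450 genes (families 4 and above, 38 genes) and conjugation enzymes (glutathione S-transferases, sulfotransferases and UDP-glucuronosyltransferases, 63 genes) were set beside the members. NCoR was found at 73.7% (56.9 to 86.6) of the other P450 genes and 87.3% (76.5 to 94.4) of the conjugation genes. Shared sites were found at 44.7% (28.6 to 61.7) and 49.2% (36.4 to 62.1) of them. The shared share of NCoR peaks was 35.7% (26.3 to 46.0) of 98 peaks at other P450 genes and 28.2% (21.1 to 36.1) of 149 at conjugation genes. Each of these intervals overlapped that of families 1 to 3, and no difference between the sets was tested. An NCoR peak at the gene's own promoter was found at 36.8% of the other P450 genes and 41.3% of the conjugation genes, compared with 43.1% of families 1 to 3.

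**Figure D3:**
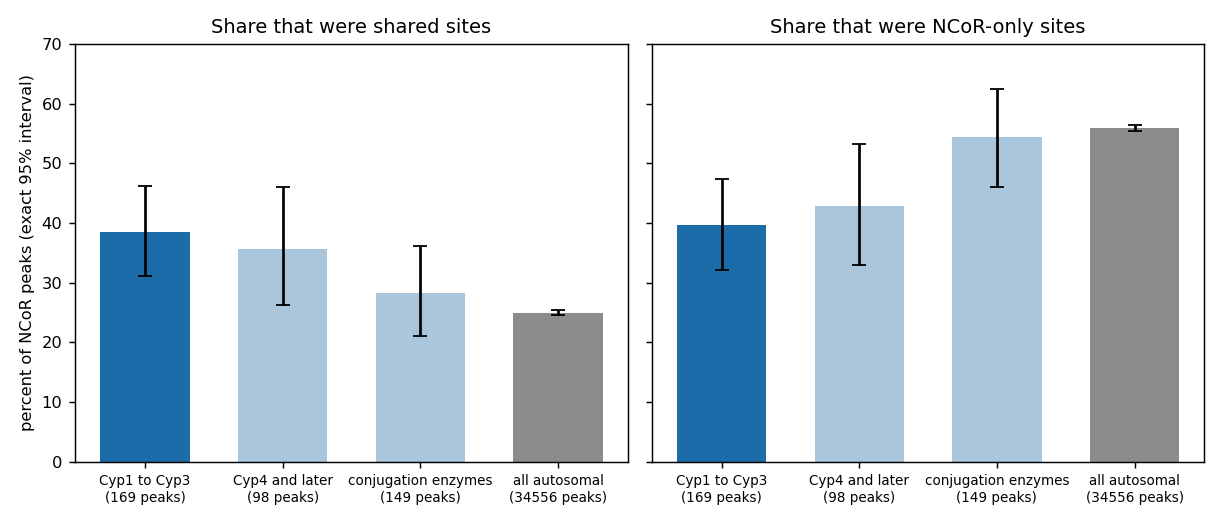
Percent of NCoR peaks that were shared (left) and NCoR-only (right) in families 1 to 3, in other P450 genes (Cyp4 and later), in conjugation enzymes and over all autosomal genes, with exact 95% intervals as error bars. Families 1 to 3 have 38.5% shared and 39.6% NCoR-only, against 25% and 55.9% over all autosomal genes, and their intervals overlap those of the other enzyme sets.

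Most peaks lay outside the genes. Of the 169 NCoR peaks, 101 (59.8%, 52.0 to 67.2) were intergenic, 42 (24.9%, 18.5 to 32.1) intragenic and 26 (15.4%, 10.3 to 21.7) at promoters. Over all autosomal NCoR peaks these shares were 37.0%, 52.6% and 10.4%. Upstream peaks numbered 102 and downstream peaks 67. The median distance to the TSS was 9250 bp, compared with 18200 bp over all autosomal peaks, and 5.92% (2.87 to 10.6) lay over 50 kb away, compared with 26.7%. The median was also short at other P450 genes (9020 bp) and conjugation genes (4960 bp). A peak can lie no farther away than the territory of its gene reaches. Territories totalled 4.47 Mb for the 58 genes and 2460 Mb for all 20807 genes. The part of gene spacing in the shorter distances was not tested.

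Promoter peaks were close to the start site, with 24 of 26 within 250 bp and a median position of -102 bp, but so were those of all autosomal genes, with 75% within 250 bp and a median distance of 105 bp against 102 bp. They were shared sites in 12 of 26 cases (46.2%, 26.6 to 66.6), compared with 14.0% (12.9 to 15.2) of all autosomal NCoR peaks at promoters. Away from promoters, 53 of 143 (37.1%, 29.1 to 45.5) were shared, compared with 26.3%. Read the other way, 18.5% (9.92 to 30) of the members' shared sites were at promoters, against 5.81% (5.33 to 6.33) of all autosomal shared sites, while 10.4% (4.3 to 20.3) of their NCoR-only sites were, against 12.7% (12.2 to 13.2).

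Shared sites at the gene's own promoter were found at 11 members: Cyp2a12, Cyp2a22, Cyp2c29, Cyp2c39, Cyp2c54, Cyp2c70, Cyp2d26, Cyp2j5, Cyp3a13, Cyp3a25 and Cyp3a57. Of these, Cyp2c39 (87.5% unique windows), Cyp2c54 (68.8%) and Cyp3a25 (56.2%) had an NCoR promoter peak with fewer than all windows unique. The peak of Cyp3a59, at -103 bp with HDAC3 but not SMRT, had the same uniqueness as that of Cyp3a25 at -104 bp, and their promoter sequences, taken from RefSeq (GRCm38.p6), were 95.7% identical.

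**Figure D4:**
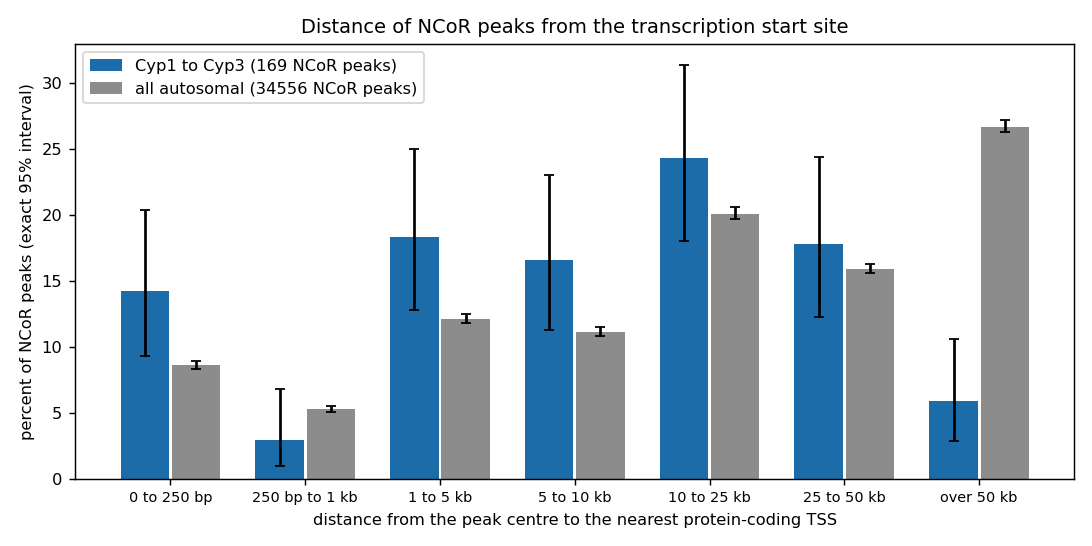
Percent of NCoR peaks in each range of distance to the nearest protein-coding TSS, for the 169 peaks of families 1 to 3 and the 34556 autosomal peaks, with exact 95% intervals as error bars. The P450 peaks are more often within 250 bp (14.2% against 8.65%) and less often over 50 kb away (5.92% against 26.7%).

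Motif strings were then searched on both strands in the central 200 bp of the NCoR peaks. A match is a description of the letters and does not show that a factor binds. At least 1 of 9 motifs was found in 62 of the 169 peaks. HNF4 strings were found in 14 (8.28%, 4.6 to 13.5; 4.75% of all autosomal NCoR peaks) and DR1 elements in 6 (3.55%, 1.31 to 7.57; 1.54%). The HNF6 strings TATCGAT and TATTGAT were found in 15 (8.88%, against 6.84%), FOX in 14 (8.28%, against 7.75%) and ROR in 14 (8.28%, against 5.58%). C/EBP strings (TTGCGCAA, TTGTGCAA, TTATGCAA and TTACGCAA) were found in 9 (5.33%, against 5.52%). The intervals of all 9 motifs in the full set of 169 peaks included the share of all autosomal peaks.

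The BCL6/STAT string, which reads alike on both strands, was found in 10 peaks (5.92%, 2.87 to 10.6), compared with 7.07% of all autosomal NCoR peaks. It was present in 6 of 65 shared sites (9.23%, 3.46 to 19.0; 7.74% of all autosomal shared sites) and 3 of 67 NCoR-only sites (4.48%, 0.933 to 12.5). The shared sites with a match included those of Cyp2e1 at -15177 bp, Cyp2f2 at 4605 bp, Cyp3a13 at 5828 bp and Cyp3a44 at 5427 bp. The dioxin response core TNGCGTG, bound by the aryl hydrocarbon receptor with ARNT, was found in 2 peaks (1.18%, 0.144 to 4.21; 2.4%). The BCL6/STAT shares depended on the window. In the central 100 bp, the string was in 1 of 65 shared sites (1.54%; 3.74% of all autosomal shared sites) and 1 of 67 NCoR-only sites (1.49%).

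At promoters the HNF4 strings and the DR1 element had intervals above the share of all promoter peaks, though DR1 rests on 2 peaks of related genes. The HNF4 strings were found in 7 of 26 promoter peaks (26.9%, 11.6 to 47.8), compared with 2.48% (2.0 to 3.04) of all autosomal NCoR peaks at promoters, while BCL6/STAT was found in 0 of 26 (exact upper bound 13.2%; 4.74% over all autosomes). The 7 were those of Cyp2c67, Cyp2c68, Cyp2c70, Cyp3a11, Cyp3a25, Cyp3a57 and Cyp3a59, of which Cyp2c67, Cyp2c68 and Cyp3a59 have no shared site and are named after their values were seen. They are not independent, since Cyp3a25, Cyp3a57 and Cyp3a59 are related copies: the promoter sequences of Cyp3a25 and Cyp3a57 were 95.7% and 90.8% identical to that of Cyp3a59. In Cyp3a11 the match lies in the first exon and is not printed. DR1 elements were found in 2 of 26 promoter peaks (7.69%, 0.946 to 25.1; 0.836% over all autosomes), those of Cyp2d9 and Cyp2d10, with none of the HNF4 strings.

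The same strings were counted in RefSeq promoters (250 bp before to 50 bp after a start), which were matched for 50 of the 58 genes. HNF4 strings were found in 7 of 23 promoters of members with NCoR there (30.4%, 13.2 to 52.9) and in 4 of 27 of those without (14.8%, 4.19 to 33.7), compared with 0.964% of 31223 autosomal RefSeq promoters. The promoters without NCoR and with a match were those of Cyp2c40, Cyp2c65, Cyp2c69 and Cyp3a16. C/EBP strings showed the opposite order, in 2 of 23 (8.7%, 1.07 to 28.0) and 7 of 27 (25.9%, 11.1 to 46.3), compared with 2.09% of all promoters. In each case the intervals of members with and without NCoR overlapped. These promoters are not all independent, since those of Cyp2a4 and Cyp2a5 (C/EBP, no NCoR) were 97.7% identical. Cyp2a4, Cyp2a5, Cyp2c40 and Cyp2c69 had 26.1% to 35.1% unique windows. The other C/EBP genes without promoter NCoR (Cyp2b10, Cyp2b19 and Cyp2b23) had 84.1% to 91.6%. Whether NCoR at these promoters went unseen for lack of unique reads was not tested.

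**Figure D5:**
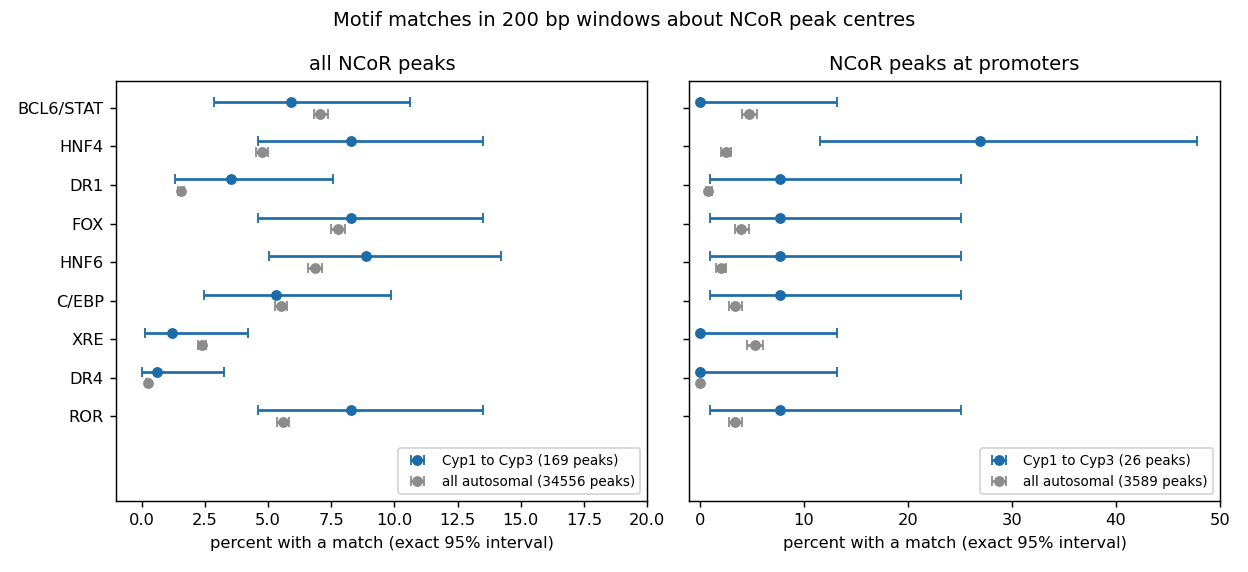
Percent of NCoR peaks with a match to each of 9 motifs in the central 200 bp (points, with exact 95% intervals), for all peaks (left) and for promoter peaks (right), in families 1 to 3 (blue) and over all autosomal genes (grey). The interval for HNF4 at promoters (11.6 to 47.8) lies above the 2.48% of all autosomal promoter peaks.

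The regulators and partners of these enzymes were looked up in the same lists. Of 10 genes for receptors and factors, NCoR was found at 9 (84 peaks; 50.5% of all genes had NCoR) and a shared site at 7 (22 sites; 21.8% of all genes). Rxra, the common partner of CAR and PXR, had 18 NCoR peaks with 2 shared, and Onecut1, which encodes HNF6, had 18 with 8 shared. Ahr had 12 with 1 shared, Cebpa 11 with 4, and Stat5b 8 with 3. Nr1i2, which encodes PXR, had 6 with 3 shared, and Nr1i3, which encodes CAR, had 3 with 1 shared within 13.0 kb of territory. Hnf4a had 6 NCoR peaks and Arnt 2, with no shared site, and Ahrr, which encodes the repressor of the aryl hydrocarbon receptor, had no peak of any cofactor. The territories of these 10 genes ran from 13.0 kb (Nr1i3) to 439 kb (Ahr), and the counts are not adjusted for length.

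Of 5 genes for electron supply, heme synthesis and epoxide hydrolysis, all 5 had NCoR (50.5% of all genes) and 4 had a shared site (21.8%). Por, the oxidoreductase that serves these P450s, had 10 NCoR peaks, of which 6 were shared. Ephx1, the microsomal epoxide hydrolase, had 7 with 4 shared, Cyb5a 7 with 3, Alas1, the rate-limiting enzyme of heme synthesis, 3 with 1, and Cyb5r3 2 with none.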

How the data were processed

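ChIP-seq libraries for SMRT, NCoR and HDAC3 were made by the authors from fed Bcl6 fl/fl livers, in 3 replicates per cofactor. Per the labels and the study's methods, single-end reads were aligned to mm10 with Bowtie, only uniquely mapped reads were kept, and HOMER called peaks on the pooled replicates against input. The authors then kept peaks that passed their fold and false discovery limits in DESeq2. The lists deposited by the authors hold a chromosome, a start and an end for each peak (positions, neither counts nor scores), with an end minus start of 228 bp for NCoR and 212 bp for SMRT and HDAC3. The depth of each library is not given in the sources used here. Columns left unmapped to a sample numbered 0. Start and end were both taken as 1-based bases inside the peak.

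All peaks lay inside the GRCm38 chromosome lengths, and GENCODE vM21 basic genes were used. Peaks were given to the nearest protein-coding TSS, and overlap meant centres within 200 bp, as in the study. A promoter was the 1000 bp before a TSS and the 100 bp after it, other peaks inside a protein-coding gene were intragenic, and the rest intergenic. Uniqueness was computed from 75-base windows every 10 bp, on both strands, with up to 2 mismatches, and was tested on simulated data. It approximates what the aligner could place, since the sources used here do not give the authors' mismatch limit. Python 3.11.15, numpy 2.4.6, pandas 2.3.3, scipy 1.17.1 and Biopython 1.88 were used. Shares were described beside all autosomal genes or peaks, with exact 95% binomial intervals and no test, since the lists hold no value per replicate.

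The members, the gene lists and the motifs were chosen with earlier results of these data known. Named genes were members with a shared site, the 5 with the most NCoR peaks, members with no peak of any cofactor, the listed drug-response and sex-biased genes, and the listed pathway genes. Other members were named after their values were seen. A marker gene on the fixed list is not reported here. Alternatives covered peak assignment, TSS choice, the member rule, uniqueness, overlap distance, promoter width, the leading gene and the motif window.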

Additional observations from a re-analysis of the deposited data

How the results depend on the processing

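Across the alternatives, 35 values were computed again. Shares were compared with their counting interval, uniqueness with the spread between genes, and counts with a factor of 1.5, and by these measures 31 values were alike and 4 moved. Keeping only genes with at least 80% unique windows left 56 NCoR peaks, 19 genes with NCoR and 10 genes with a shared site, because fewer genes enter. A promoter of 5 kb either side of a TSS raised the promoter share to 35.5%, by its width. The shared share ran from 33.9% to 39.1% and the NCoR-only share from 35.2% to 41.5% over the alternatives. The lowest shared share was that of genes with at least 80% unique windows. Its interval (21.8 to 47.8) included the 25% of all autosomal peaks. In windows of 100 bp, 3 of 9 motif shares moved. BCL6/STAT went to 1.78% (3.47% of all autosomal peaks), FOX to 4.14% (4.65%) and DR4 to 0% (0.148%). Shorter windows hold fewer matches, and these shares of all autosomal peaks also fell. Also taking symbols such as Cyp3a41a, Cyp3a41b and Cyp2ab1 gave 171 NCoR peaks. No paired analysis was possible because replicates were pooled in each list, and for the same reason no replicate could be left out. A stricter peak threshold needs a score, which the lists do not hold, and was not run.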

Other observations

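Some genes of the P450 arrays have symbols that the member rule does not take. Cyp3a41a (chromosome 5, 11.6% unique windows) was nearest to 1 NCoR peak and no other cofactor. Its copy Cyp3a41b (13.6% unique windows) was nearest to 1 NCoR, 1 SMRT and 1 HDAC3 peak, which formed 1 shared site. Cyp2ab1 (chromosome 16, 93.8% unique windows) had no peak of any cofactor.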
